A study of Mus musculus with 26 samples.

Results

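Selenbp1, the gene of selenium-binding protein 1, is 1 of 48432 rows in the deposited expression table of mouse brown adipose tissue, the depot that burns fuel to make heat. It was chosen by its measured values in this table, namely its difference between genotypes in each condition and its response to fasting and cold in each genotype. Its own levels and differences are therefore given as a description, with no test. The table holds 26 RNA sequencing libraries of mice aged 2 months. All mice carried KLF15 flox/flox alleles, from which Cre recombinase can remove part of the gene of the transcription factor Klf15. FF mice had these alleles without Cre. BKO mice (genotype Ucp1-Cre/+;K15F/F) also carried a Cre transgene under control of the Ucp1 promoter. That promoter works in brown adipocytes, so other cells of the depot should keep Klf15. For each genotype there were 3 libraries of fed and 3 of fasted animals at room temperature, 4 of a cold challenge and 3 of cold with fasting. The labels used here give neither the length of the fast nor the temperature of the cold. Levels are FPKM, fragment counts scaled to transcript length and to the mapped fragments of the library. Responses are relative to feeding at room temperature unless another reference is named.

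Selenbp1 encodes methanethiol oxidase, which converts methanethiol, a gas formed from methionine, into hydrogen sulfide, hydrogen peroxide and formaldehyde. The protein binds selenium but contains no selenocysteine, so it is not a selenoprotein. Klf15 is a zinc finger factor known for raising genes of amino acid breakdown in fasting, and Krüppel-like factors bind CACCC and related GC-rich elements.

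The gene lies on the plus strand at chr3:94933056-94944758 (GRCm38, GENCODE M21, ENSMUSG00000068874.13, protein-coding). A near-identical copy, Selenbp2, lies 228643 bases before it at chr3:94693556-94704413 on the same strand. The longest protein-coding transcripts of both genes were identical at 1687 of 1712 aligned bases (98.5%). Of 1663 windows of 50 bases in the Selenbp1 transcript, 869 (52.3%) were also found in a Selenbp2 transcript, so reads that lie within these stretches cannot be assigned to 1 of the copies. The table lists Selenbp2 at 0 in 10 libraries and at no more than 0.173 FPKM in the other 16, which was at most 0.729% of the sum of both genes. The sequences before the earliest annotated starts of the copies are shown because 1 copy was listed at 17 FPKM or more throughout and the other hardly at all. They come from the RefSeq promoter table of GRCm38.p6, chr3:94932833-94933055 for Selenbp1 and chr3:94693323-94693555 for Selenbp2, both plus strand and 5′ to 3′. Capitals mark bases that differ between the copies or have no partner in the other.
Selenbp1: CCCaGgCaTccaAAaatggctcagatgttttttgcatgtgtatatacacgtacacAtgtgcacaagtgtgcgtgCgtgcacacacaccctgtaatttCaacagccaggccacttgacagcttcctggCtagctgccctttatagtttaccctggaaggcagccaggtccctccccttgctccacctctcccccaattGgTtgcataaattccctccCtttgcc
Selenbp2: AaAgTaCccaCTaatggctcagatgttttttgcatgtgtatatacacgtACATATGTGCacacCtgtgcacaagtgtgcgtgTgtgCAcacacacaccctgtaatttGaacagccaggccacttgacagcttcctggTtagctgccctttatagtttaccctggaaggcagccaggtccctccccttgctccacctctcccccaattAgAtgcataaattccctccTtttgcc

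The windows of both copies, 223 bases for Selenbp1 and 233 for Selenbp2, were identical at 208 of 221 aligned bases (94.1%). There were 13 mismatches, 12 bases of Selenbp2 that have no partner and 2 unaligned bases at the start of Selenbp1. All 3 motifs were searched on both strands. CACCC occurred 1 time in each window, on the plus strand. Of 32851 RefSeq promoter windows cut to 223 bases, the length for Selenbp1, 48.3% hold it. GGGCGG, the GC box, occurred in neither (28.9% of windows hold it). TATAAA occurred 1 time in each, on the minus strand, where the printed strand reads TTTATA (10.2% of windows). These are matches of letters only, and factor binding was not measured.

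In fed FF mice Selenbp1 stood at 29, 31.7 and 21.6 FPKM. In fasted FF mice it stood at 108.0, 96.1 and 138.0 FPKM. All 3 fasted libraries lay above all 23 others of the series, which ranged from 17 to 32.6 FPKM. Fed BKO mice held 19.5, 22 and 21 FPKM, and fasted BKO mice 29.7, 21.8 and 25.7 FPKM, with ranges that overlapped. The mean of FF mice was 27.5 ± 5.2 FPKM fed (SD, n = 3) and 114.0 ± 21.7 FPKM fasted (SD, n = 3), a ratio of 4.15. In BKO mice it was 20.8 ± 1.26 FPKM fed (SD, n = 3) and 25.8 ± 3.91 FPKM fasted (SD, n = 3), a ratio of 1.24.

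In the cold the level of FF mice stayed close to that of fed FF mice. FF mice under cold challenge held 28.7, 32.6, 29.8 and 24.4 FPKM, and BKO mice 17.4, 18, 18.8 and 17 FPKM, so that the genotypes did not overlap. The BKO libraries in cold also lay below all 3 of fed BKO mice (19.5 to 22 FPKM). Under cold with fasting, FF mice held 31.1, 28.1 and 23.3 FPKM. BKO mice in that condition held 18, 18.9 and 23.8 FPKM, and the highest of them lay above the lowest FF library.

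**Figure D1:**
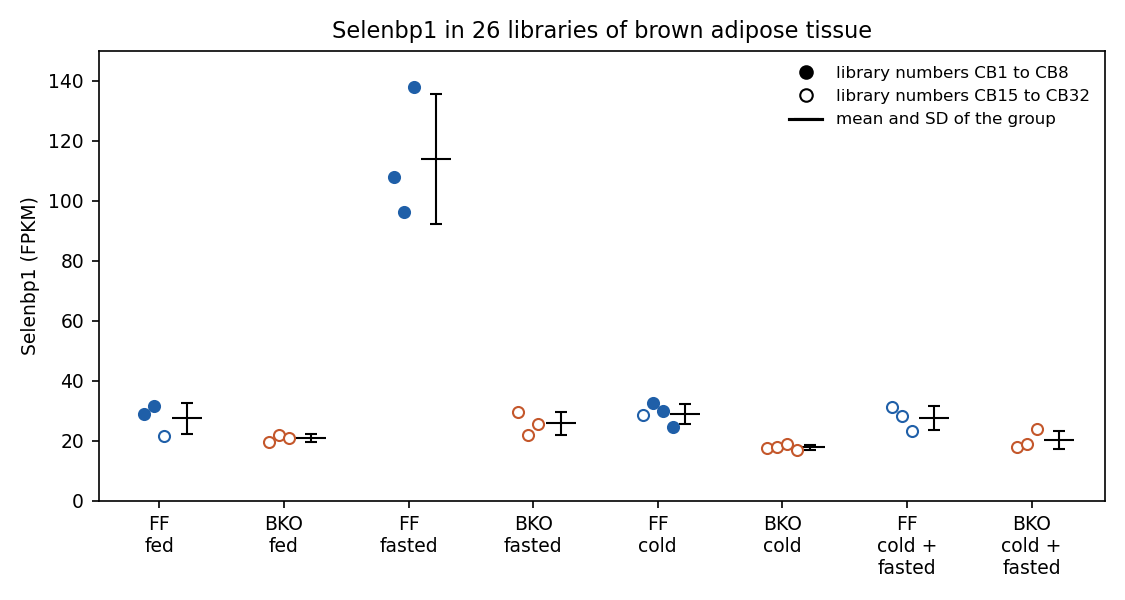
Selenbp1 level (FPKM, linear axis from 0) in each library of the 8 groups. Filled points have library numbers CB1 to CB8 and open points CB15 to CB32, and bars give the group mean and SD. The 3 libraries of fasted FF mice sit between 96.1 and 138.0 FPKM, and the other 23 between 17 and 32.6 FPKM.

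Ordered by mean level, fasted FF mice came first at 114.0 FPKM and were the only group whose libraries did not overlap with those of the next. FF mice in cold (28.9 ± 3.42 FPKM, SD, n = 4), fed FF mice and FF mice under cold with fasting (27.5 ± 3.97 FPKM, SD, n = 3) followed. Then came BKO mice, first fasted, then fed, then under cold with fasting (20.2 ± 3.14 FPKM, SD, n = 3) and last in cold (17.8 ± 0.788 FPKM, SD, n = 4). After the first place, the ranges of neighbours in this order overlapped.

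On the scale log2(FPKM + 1), BKO minus FF was -0.37 (SE 0.15) fed, -2.10 (SE 0.15) fasted, -0.66 (SE 0.13) in cold and -0.42 (SE 0.15) under cold with fasting. In FPKM the BKO means were 75.9%, 22.6%, 61.7% and 73.6% of the FF means. Of the 12702 genes tested, 9 had a more negative difference than Selenbp1 in fasted mice, 84 in cold, 228 under cold with fasting and 313 in fed mice. The labels number the libraries CB1 to CB8 and CB15 to CB32 without saying what separates these runs of numbers, and all BKO libraries are in the second run. Among CB15 to CB32 alone, fed BKO minus fed FF was -0.05, from 3 BKO libraries and the 1 FF library at 21.6 FPKM. In cold it was -0.66 there, from 4 BKO libraries and the 1 FF library at 28.7 FPKM. Under cold with fasting all 3 FF and all 3 BKO libraries are in the second run, so the -0.42 lies within 1 run.

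All fasted FF libraries have numbers of the first run and all fasted BKO libraries numbers of the second, so in fasted mice genotype and run cannot be told apart. With the run as a term in the model, estimated from the FF groups that hold both runs, the fasted difference was -1.88. That term rests on 1 library of the second run in each of these groups, fed and cold. Their log2 levels were 4.5 against a mean of 4.97 in the first run for fed mice, and 4.89 against 4.89 in cold. The value therefore does not separate genotype from run. The fasting response of FF mice can be read within CB1 to CB8, where it was 1.86 (3 fasted and 2 fed libraries). Over all libraries it was 2.02 (SE 0.15).

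**Figure D2:**
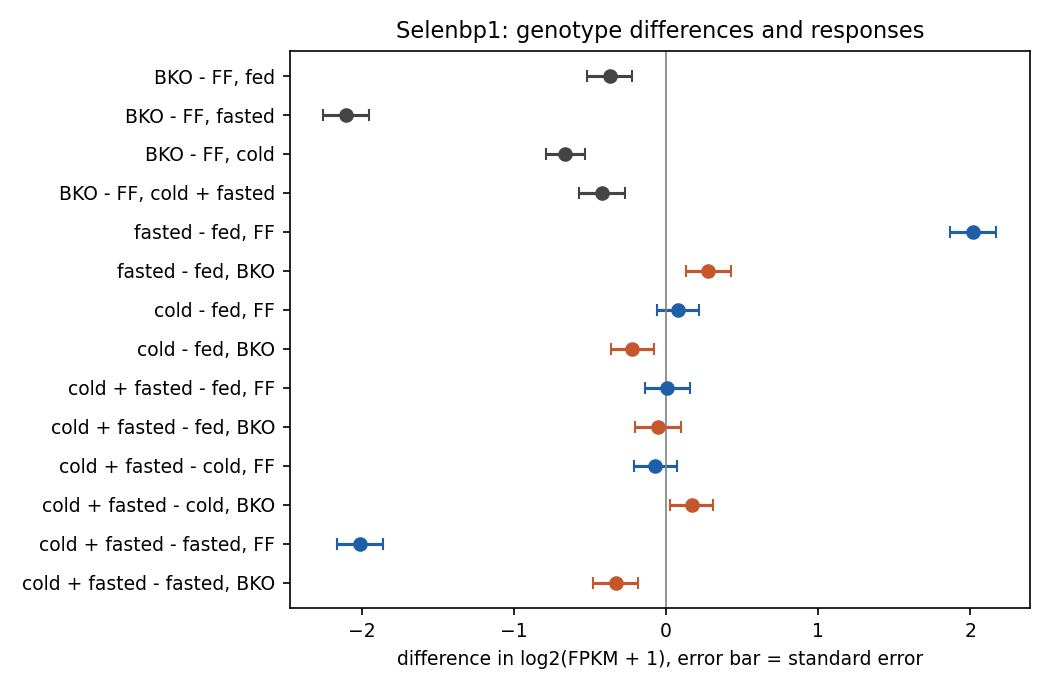
Differences of Selenbp1 in log2(FPKM + 1) with standard errors, for BKO against FF in 4 conditions (grey) and for responses within FF (blue) and BKO mice (orange). The values farthest from 0 are those that involve fasted FF mice, at -2.10, 2.02 and -2.01. In the first and the last of these, the groups compared also lie in different runs of library numbers.

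Fasting changed Selenbp1 by 0.28 (SE 0.15) in BKO mice, and the BKO minus FF difference of the fasting responses was -1.73 (SE 0.21). Cold changed it by 0.08 (SE 0.14) in FF and -0.22 (SE 0.14) in BKO mice, and cold with fasting by 0.01 (SE 0.15) and -0.05 (SE 0.15). When cold was added to fasting, the level in FF mice was 27.5 FPKM in place of 114.0 FPKM, 24.1% of the fasted level (log2 difference -2.01, SE 0.15). The 3 fasted FF libraries are of the first run of numbers and the 3 under cold with fasting of the second, so cold and run cannot be told apart in this step. In BKO mice the same step gave -0.33 (SE 0.15). When fasting was added to cold, the differences were -0.07 (SE 0.14) in FF and 0.17 (SE 0.14) in BKO mice. High Selenbp1 was thus seen in FF mice that were fasted at room temperature, and in none of the other 7 groups.

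Klf15, the targeted gene, ranged from 9.03 to 30.6 FPKM in the 13 FF libraries and from 2.12 to 8.92 FPKM in the 13 BKO libraries. The deleted part of the gene is not stated in the labels used here. Klf15 and all genes below were tested with limma on log2(FPKM + 1), with p adjusted over all 12702 genes. BKO minus FF for Klf15 was -2.55 fed (adjusted p = 1.16e-08), -1.38 fasted (6.49e-05), -2.11 in cold (2.24e-08) and -2.11 under cold with fasting (4.59e-07). The responses of both genes can be set side by side. Klf15 was at 29.8, 30.6 and 23.5 FPKM in fed and 24.5, 18.8 and 29.1 FPKM in fasted FF mice, ranges that overlap, while Selenbp1 was 4.15 times higher in the fasted ones. In FF mice in cold Klf15 fell by 0.97 on the log2 scale (adjusted p = 0.000416), while Selenbp1 differed by 0.08. In BKO mice Klf15 rose with fasting by 0.96 (adjusted p = 0.000603), from 3.99 ± 1.03 to 8.56 ± 0.539 FPKM (SD, n = 3 each).

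**Figure D3:**
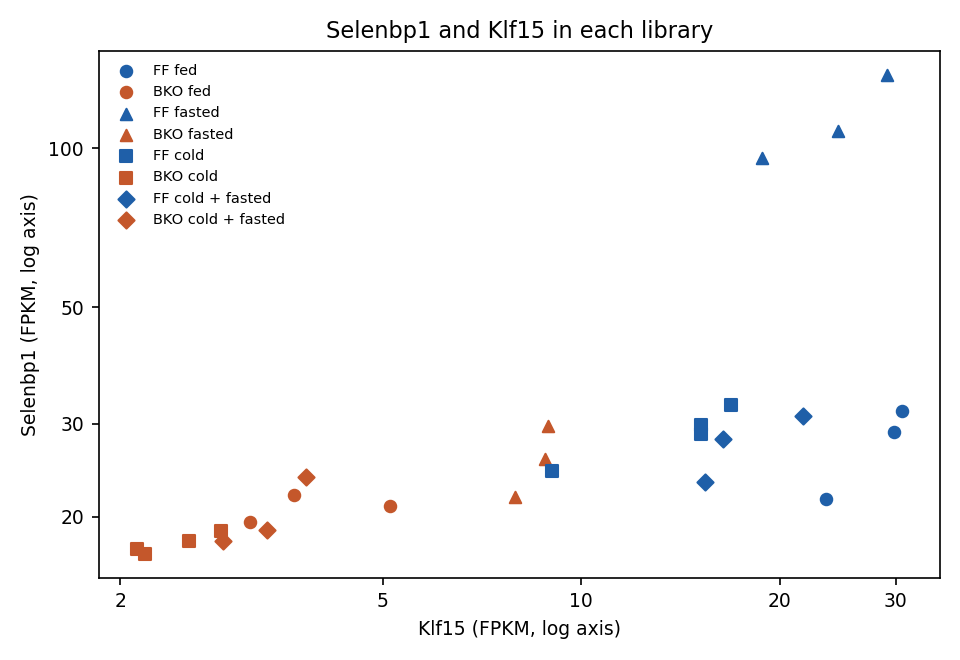
Selenbp1 against Klf15 in each of the 26 libraries (FPKM, both axes logarithmic), coloured by genotype and shaped by condition. Fasted FF libraries (blue triangles) lie above all others, at Klf15 levels of 18.8 to 29.1 FPKM that overlap with those of fed FF libraries (23.5 to 30.6 FPKM).

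Across the 26 libraries the Pearson correlation of Selenbp1 with Klf15 in log2(FPKM + 1) was 0.663. Without the fasted FF libraries it was 0.848 (n = 23), the highest among the 10296 genes with a mean of at least 2 FPKM. Over all 26 libraries Klf15 was not among the 8 genes with the highest correlation. Among CB15 to CB32 alone its correlation was 0.796 (n = 18), below the 0.837 of Oat. Over deviations from group means in all 26 libraries the correlation with Klf15 was 0.785. The libraries share groups and differ in genotype, so these values are descriptions. Known Klf15 targets in amino acid breakdown can be set beside it. Gstz1, which acts in tyrosine breakdown, gave BKO minus FF values of -2.21 fed, -2.59 fasted, -2.52 in cold and -2.46 under cold with fasting, each with an adjusted p of 1.26e-11 or below except in fed mice (6.26e-11). For Selenbp1 the values in the same order were -0.37, -2.10, -0.66 and -0.42. Prodh, the first enzyme of proline breakdown, had a correlation of 0.831 with Selenbp1, which was 0.695 without the fasted FF libraries and 0.304 over deviations from group means. It was lower in BKO mice by 1.75 fasted (adjusted p = 7.92e-07), by 1.11 in cold (adjusted p = 0.000146) and by 1.11 under cold with fasting (adjusted p = 0.00149). Adhfe1 and Hpd were lower in BKO mice in all 4 conditions, and Bcat2 in fasted mice and in cold. The call of Hpd in fed mice (adjusted p = 0.0247) ended without any of 5 single libraries (up to 0.132). It also ended with the run of library numbers as a term (0.126). Hpd reached the filter of 1 FPKM in FF libraries alone (BKO at most 0.112 FPKM), so its calls are descriptions.

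The genes most like Selenbp1 over the 26 libraries were Ndrg2 (r = 0.949), Oat (0.948), Pxmp2 (0.927), Mettl7a1 (0.919), Aldh1l1 (0.91), Gm7895 (0.905), Ppm1b (0.903) and Wbp1l (0.898). Oat, ornithine aminotransferase, was at 27.6 FPKM in fed and 54.6 FPKM in fasted FF mice and at 22.1 and 27.6 FPKM in fed and fasted BKO mice. Pxmp2, a peroxisomal membrane channel protein, was at 21.2 and 52.4 FPKM in FF and at 12.9 and 14.5 FPKM in BKO mice. Aldh1l1, which oxidises a formyl group carried by folate, was at 27.9 and 87.0 FPKM in FF and at 20.7 and 29.9 FPKM in BKO mice. The fasting response of FF mice was 2.02 on the log2 scale for Selenbp1 and 0.69 to 1.61 for these 8 genes.

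Much of this likeness came from the fasted FF libraries. Without them, 3 of these 8 genes (Oat, Pxmp2 and Mettl7a1) were still among the 8 most like, beside Klf15, Isoc2a, Eci3, Nrbp2 and Sfxn2, and the correlation with Selenbp1 was 0.274 for Gm7895 and 0.31 for Ppm1b. Over deviations from the group means, Ndrg2 had 0.767, Mettl7a1 0.623 and Aldh1l1 0.154. The genes that ran most against Selenbp1 were Plin1 (r = -0.889), Paqr7 (-0.885) and Bscl2 (-0.873), 3 of the 4 with the lowest correlation. Plin1, the coat protein of lipid droplets, had a mean of 254.0 FPKM in fasted FF mice and of 541.0 to 613.0 FPKM in the other 7 groups.

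**Figure D4:**
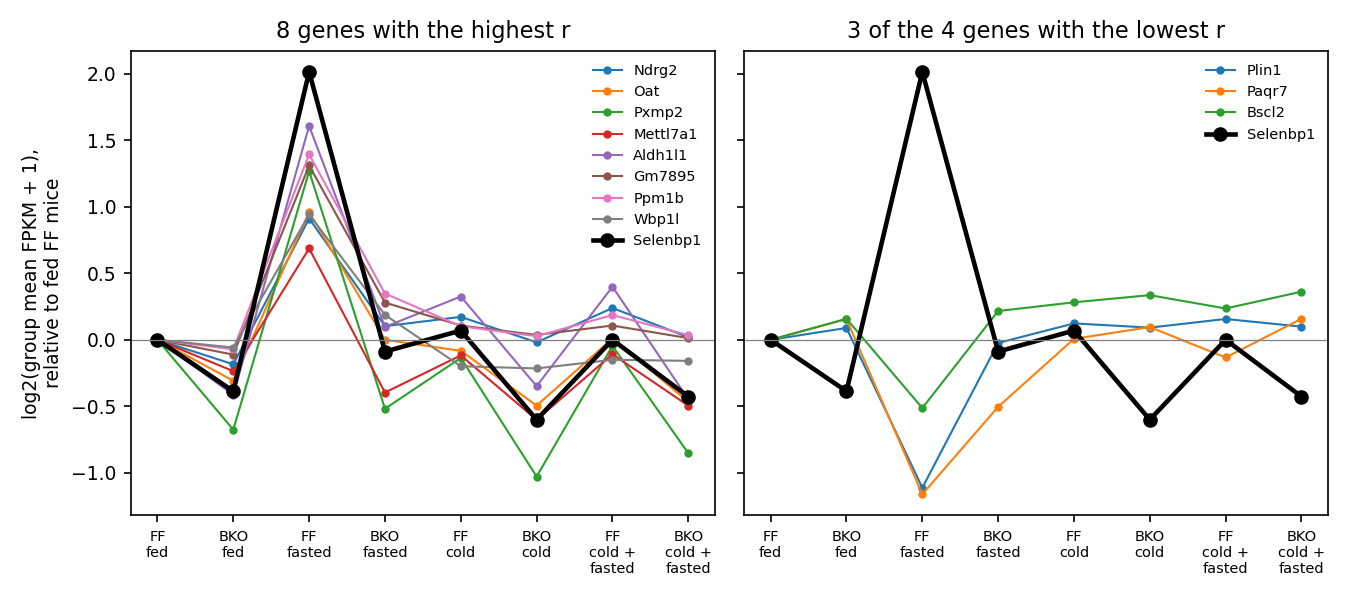
Group means as log2(FPKM + 1) relative to fed FF mice for Selenbp1 (black) and the 8 genes with the highest (left) and 3 of the 4 with the lowest (right) correlation to it over 26 libraries. All 8 like genes share the peak of Selenbp1 in fasted FF mice at lower values, and the other 3 have their lowest means there.

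Genes that act around methanethiol oxidase were taken as 6 lists of 103 genes, of which 87 were tested, 15 were below the filter of 1 FPKM in 3 libraries and 1 was not matched. Selenbp1 itself is in none of these counts. In fed mice 0 of 87 passed (8 at an unadjusted p under 0.05), where limma called 0.22% of all genes. In fasted mice, where Selenbp1 was lowest relative to FF, 12 were lower and 3 higher in BKO mice, 17.2% of the 87 beside 8.68% of all genes, with a median of -0.09 (all genes -0.002). In cold 4 of 87 were lower and 0 higher (all genes 0.402%, with 48 lower and 3 higher). Under cold with fasting 3 were lower and 0 higher (all genes 0.236%, with 28 lower and 2 higher). Calls over all genes thus also lay mostly in this direction. At an unadjusted p under 0.05, 1 was higher in each of these 2 conditions. With the run of library numbers as a term, 9 passed in fasted mice (1.16% of all genes) and 0 in cold (0.134% of all genes). The lists were drawn up with the pattern of Selenbp1 known.

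The list of methanethiol and hydrogen sulfide metabolism had 12 tested members. In fasted BKO mice 4 of them were lower, as Selenbp1 was, where 8.68% of all genes were called. Cth, a cystathionine gamma-lyase that also makes hydrogen sulfide, held 2.67, 1.98 and 2.96 FPKM in fasted FF and 0.129, 0.299 and 0.288 FPKM in fasted BKO mice, with no overlap (log2 difference -1.51, SE 0.15, adjusted p = 1.46e-06). Cbs, cystathionine beta-synthase, held 2.43, 2.25 and 2.75 FPKM in fasted FF and 0.569, 0.444 and 0.554 FPKM in fasted BKO mice (log2 difference -1.19, adjusted p = 7.01e-06). On such low genes the added 1 in the logarithm shrinks the fold. Cbs reached the filter of 1 FPKM in FF libraries alone, with at most 0.569 FPKM in BKO mice. Cth reached 1 FPKM in only 2 BKO libraries, fed replicate 1 (1.2 FPKM) and replicate 1 under cold with fasting (1.01 FPKM). The filter asks for 3. Both genes were thus tested only because FF mice were high, and their calls here and below are descriptions. The counts of called members include them where they passed. Mettl7a1, of the thiol methyltransferase family, held 297.0, 239.0 and 324.0 FPKM in fasted FF and 152.0, 132.0 and 123.0 FPKM in fasted BKO mice (log2 difference -1.07, adjusted p = 1.82e-06). Kyat3, which cleaves cysteine conjugates, was lower by 0.59 (adjusted p = 0.000986). Mettl7b was below the filter, at no more than 0.103 FPKM.

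None of 5 enzymes that handle sulfide and sulfite passed in fasted mice. With 8.68% of all genes called there, 0 among 5 is near the background and nothing is read from it. BKO minus FF was -0.22 for Sqor, which oxidises sulfide in mitochondria (adjusted p = 0.122), -0.21 for Ethe1 (0.3), -0.20 for Suox (0.137), -0.20 for Mpst (0.409) and 0.59 for Tst (0.11). Suox, sulfite oxidase, fell with fasting by 0.51 in FF (adjusted p = 5.17e-05) and by 0.78 in BKO mice (adjusted p = 4.38e-07), whereas Selenbp1 was higher by 2.02 and 0.28.

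For the other products of the reaction, 2 of 9 tested members of formaldehyde and formate oxidation were lower in fasted BKO mice, Aldh1l1 (log2 difference -1.55, adjusted p = 2.9e-06) and Aldh2 (-0.38, adjusted p = 0.018). Of all genes 8.68% were called there, and with so few members nothing is read from this count. Adh5, the formaldehyde dehydrogenase that works with glutathione, was at 83.1 FPKM in fasted FF and 74.6 FPKM in fasted BKO mice (adjusted p = 0.282). Of 17 tested members of hydrogen peroxide removal, 2 were higher and 1 lower in fasted BKO mice. The share over all genes was again 8.68%, and with so few members nothing is read from this count either. Catalase (Cat) held 443.0, 460.0 and 414.0 FPKM in fasted FF and 637.0, 698.0 and 674.0 FPKM in fasted BKO mice, the opposite direction from Selenbp1 (log2 difference 0.61, adjusted p = 0.000225). Glrx was higher by 0.51 (adjusted p = 0.0349) and Txn1 lower by 0.39 (adjusted p = 0.0142). Gpx1 and Gpx4 differed by 0.12 and -0.07 (adjusted p = 0.579 and 0.769). The call of Aldh2 ended without any of 4 single libraries (adjusted p up to 0.0715), the Glrx call without any of 4 (up to 0.126), and the Txn1 call without the third library of either group (up to 0.0997).

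On the substrate side, 2 of 15 tested genes of the methionine cycle and salvage were lower in fasted BKO mice, Ahcyl2 (-0.92, adjusted p = 0.00082) and Mtr (-0.46, adjusted p = 0.0359). Of 12 tested genes of cysteine, taurine and glutathione synthesis, Chac1 was lower (-1.25, adjusted p = 0.00489). Of 22 tested genes of selenoproteins and selenium handling, 2 were lower, Msrb1 (-0.66, adjusted p = 0.000269) and Secisbp2l (-0.58, adjusted p = 0.0162). That is 9.09% of the selenium list, close to the 8.68% of all genes called in fasted mice, and the 1 of 12 above is also near that share. The 2 of 15 above are few genes too, so nothing is read from these counts. Selenop, the plasma carrier of selenium, differed by -0.24 (adjusted p = 0.276). The call of Mtr ended without any of 5 single libraries (adjusted p up to 0.171), and that of Secisbp2l without BKO replicate 3 or FF replicate 1 (up to 0.107). Those of Ahcyl2 and Chac1 ended with the run of library numbers as a term (adjusted p = 0.103 and 0.118). With that term 9 members of the 6 lists passed in fasted mice in place of 15, so further calls ended as well.

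**Figure D5:**
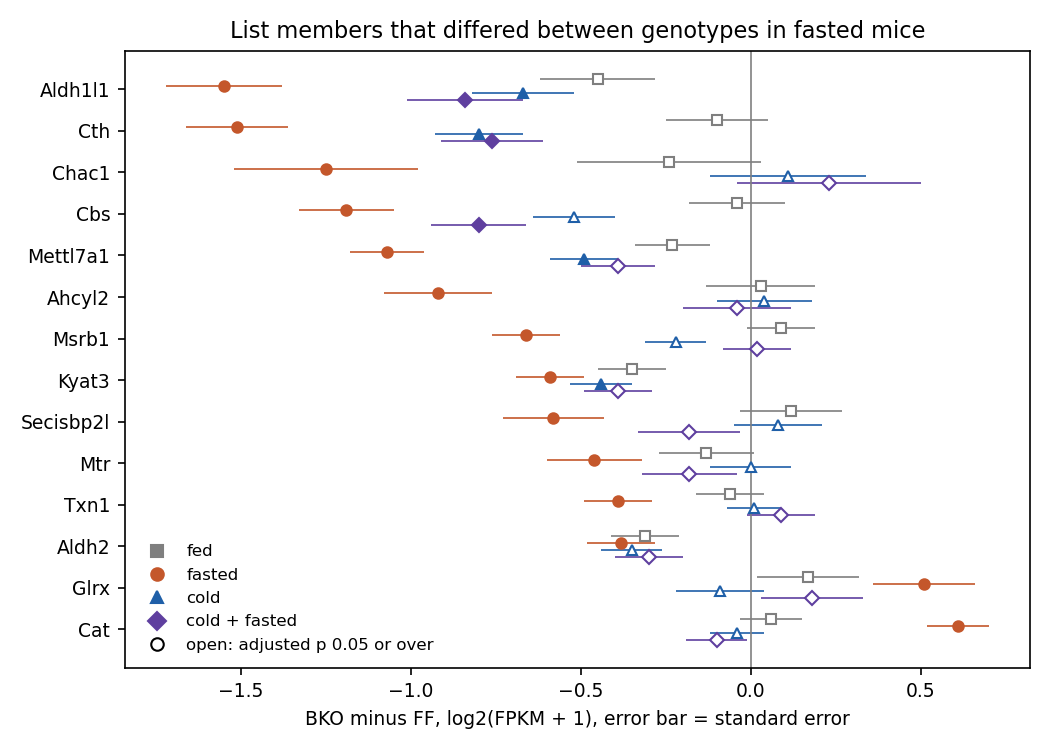
BKO minus FF in log2(FPKM + 1) with standard errors for 14 of the 15 list members that differed in fasted mice, in all 4 conditions, with filled symbols for an adjusted p under 0.05. Fasted mice (orange circles) run from -1.55 for Aldh1l1 to 0.61 for Cat, and no symbol of fed mice is filled.

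In cold, where Selenbp1 was at 61.7% of the FF level, Cth was lower in BKO mice by 0.80 (adjusted p = 0.00251), Mettl7a1 by 0.49 (0.0155), Kyat3 by 0.43 (0.0221) and Aldh1l1 by 0.67 (0.0376). Only the Cth call held when each library was left out in turn, and it ended with the run of library numbers as a term (adjusted p = 0.187). The others reached 0.0804, 0.153 and 0.156 without single libraries, Mettl7a1 and Kyat3 without any of 4 and Aldh1l1 without any of the 8. Under cold with fasting, where Selenbp1 was at 73.6%, Cbs was lower by 0.80 (adjusted p = 0.00526), Cth by 0.76 (0.031) and Aldh1l1 by 0.84 (0.0272). The Cbs call ended without FF replicate 1 or 2 (up to 0.0709), the Cth call without any of 5 libraries (up to 0.308) and the Aldh1l1 call without any of the 6 (up to 0.142).

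With fasting, 38 of the 87 list members changed in FF mice, 27 up and 11 down (43.7% beside 37.5% of all genes). In BKO mice 31 changed, 18 up and 13 down (35.6% beside 27.4% of all genes). The median response was 0.09 in FF (all genes 0) and -0.03 in BKO mice (all genes -0.006), where Selenbp1 had 2.02 and 0.28. Cbs rose in FF mice by 1.64 (adjusted p = 1.16e-08) and in BKO mice by 0.49 (adjusted p = 0.0101). Cth rose by 0.85 in FF mice (adjusted p = 0.000179) and fell by 0.56 in BKO mice (adjusted p = 0.00924, but 0.0732 without fed BKO replicate 1). Mettl7a1 rose by 0.69 in FF mice (adjusted p = 5.19e-05) and differed by -0.15 in BKO mice (adjusted p = 0.329). Cat rose in both genotypes, by 0.58 in FF (adjusted p = 3.41e-05) and by 1.13 in BKO mice (adjusted p = 9.32e-09). Cdo1, cysteine dioxygenase, also rose in both, by 1.30 (adjusted p = 2.74e-07) and 1.07 (adjusted p = 5.59e-06).

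In cold, where Selenbp1 differed by 0.08 in FF and -0.22 in BKO mice, 29 list members changed in FF mice (33.3% beside 23.6% of all genes) and 22 in BKO mice (25.3% beside 16.2%). Under cold with fasting it was 28 in FF mice (32.2% beside 20.5%) and 19 in BKO mice (21.8% beside 19%). Got1, which transfers amino groups from aspartate, had the smallest adjusted p of the lists in cold and rose by 1.73 in FF (1.33e-07) and by 1.80 in BKO mice (1.41e-07). Sqor fell in cold by 0.47 in FF (adjusted p = 0.000273) and by 0.49 in BKO mice (adjusted p = 0.000296).

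Of 28 annotated genes within 250 kb of Selenbp1, 13 were tested, and limma called 0 of them between genotypes in any condition (0 to 2 per condition at an unadjusted p under 0.05). Of all genes, 0.22% were called in fed mice, 8.68% in fasted mice, 0.402% in cold and 0.236% under cold with fasting, so a count of 0 among 13 lies near the background and nothing is read from it. Psmb4, a proteasome subunit 46095 bases before Selenbp1, was at 96.1 FPKM in fed and 100.0 FPKM in fasted FF mice, and Pogz, 50730 bases before it, at 3.5 and 4.1 FPKM. Rfx5, 9317 bases after Selenbp1, was at 2.28 and 2.64 FPKM. Pi4kb, 29973 bases after it, rose with fasting in FF mice by 0.24 (adjusted p = 0.0268), from 12.9 to 15.5 FPKM. Farther after it, Gm15265 rose by 0.74 (adjusted p = 0.000341), Psmd4 by 0.42 (0.00297) and Pip5k1a by 0.26 (0.0431). The other tested neighbours did not pass. Of all genes 37.5% were called for fasting in FF mice, and nothing is read from these calls. Selenbp1 went from 27.5 to 114.0 FPKM in the same mice.

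In bulk tissue, less Selenbp1 RNA per cell and fewer cells that hold it cannot be told apart. In the list of brown adipocyte markers, Cidea was at 1600 to 2310 FPKM and Fabp4 at 7020 to 10100 FPKM. The regulators Ppargc1a (5.86 to 38.2 FPKM), Prdm16 (1.81 to 9.5 FPKM) and Zic1 (1.6 to 4.92 FPKM) were far lower. Fabp4, Adipoq, Plin1 and Pparg on this list are general adipocyte genes and not specific to brown adipocytes. Ucp1 was not used because it is listed at 0 in 8 libraries, all of those under cold challenge. The summed level of the other 12 genes of this list was 15200 to 17100 FPKM in fasted FF mice, 17800 to 20400 FPKM in fasted BKO mice and 16800 to 19600 FPKM in fed FF mice. The group with the highest Selenbp1 thus had the lowest mean sum, and Plin1, 1 of the 12, was at 254.0 FPKM there against 550.0 FPKM in fed FF mice. Fabp4 alone had a mean of 7860 FPKM of the mean sum of 16400 FPKM there, so the sum does not measure brown adipocytes alone. Cidea had a mean of 1900 FPKM in fasted FF mice, below fed FF mice (2030 FPKM) and above FF mice under cold with fasting (1780 FPKM). Of defining liver and epithelial genes, Ttr was listed at 0 in all 26 libraries, Alb at no more than 0.0404 FPKM and Epcam at 0 in 25. A listed 0 in this table can be a failed estimate. Cyp2e1, the 1 tested member of the 7 on that list, was at 103.0 to 129.0 FPKM in fasted FF mice, at 27.6 to 69.1 FPKM in fed FF mice and at 45.8 to 56.4 FPKM in fasted BKO mice.

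Markers of white adipocytes summed to 177.0 to 312.0 FPKM in fasted FF mice, 129.0 to 187.0 FPKM in fasted BKO mice and 68.0 to 88.9 FPKM in fed FF mice. Fbxo31 made up 149.0 to 280.0 FPKM of the first range. Without it the other 10 summed to 28.4 to 42.2 FPKM in fasted and 51.2 to 58.3 FPKM in fed FF mice, and Tcf21 was listed at 0 in all 26 libraries. Red cell genes summed to 226.0 to 266.0 FPKM in fasted FF, 120.0 to 188.0 FPKM in fed FF and 159.0 to 292.0 FPKM in fasted BKO mice. They were higher still in FF mice in cold, at 342.0 to 601.0 FPKM, where Selenbp1 was at 24.4 to 32.6 FPKM. Between genotypes in fasted mice, limma called 0 of 7 tested white adipocyte markers (2 at an unadjusted p under 0.05) and 0 of 5 red cell markers (0 unadjusted). With 8.68% of all genes called there, counts of 0 among so few genes are near the background and nothing is read from them. The part of these cell types in the level of Selenbp1 was not tested.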

How the data were processed

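RNA of brown adipose tissue was sequenced in 26 libraries of separate mice. The deposited values are FPKM per gene. Per the submitters' processing notes, the authors worked with the programs STAR, Cufflinks and Cuffdiff and the build mm10, and versions of the programs are not given in the sources used here. Without read counts the depth is unknown, and values carry no counting interval. The FPKM of a library summed to 388107 to 501068. Groups follow the labels' genotype and treatment.

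All fits used log2(FPKM + 1), which shrinks changes of low genes. A gene was tested when 3 or more libraries reached 1 FPKM, leaving out 33 genes that are listed at 0 in some libraries and at 100 FPKM or more in all others (Ucp1 among them). This left 12702 genes. Group means of the 8 groups were estimated in 1 linear model by limma (version 3.58.1, R 4.3.3) with moderated variances that follow the expression level. Two-sided p-values were adjusted by the Benjamini-Hochberg method within each comparison, with a threshold of 0.05, and measure the spread between mice. The fit was tested on simulated data. IDs were matched to GENCODE M21 (48051 of 48432), and sequences were aligned with Biopython 1.88.

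Selenbp1 and the gene lists were chosen with earlier results of these data known. Other genes named by rule are Klf15, 5 of its targets, Selenbp2, the 8 most like and 4 most unlike genes by Pearson correlation, up to 3 called members per list and comparison with the smallest adjusted p, members fixed by name, and the 2 nearest tested genes on each side. Isoc2a, Eci3, Nrbp2, Sfxn2, Gm15265, Psmd4 and Pip5k1a were named after their values were seen. Some genes that the rule gives are withheld items and are not shown. Alternatives were another pseudocount, other filters, quantile normalization, array weights, the run of library numbers as a term, CB15 to CB32 alone, only the libraries compared, the sum of both gene copies, and each library left out in turn. CB1 to CB8 alone and likeness without fasted FF mice were added after seeing the data.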

Additional observations from a re-analysis of the deposited data

Results flagged for a closer look

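In the groups of 4, 36 combinations of 18 genes and a cold group were screened for a library that stood far from the other 3, and 4 were found, where chance gives about 1 in 20. The gap to the nearest library was 0.929 of the range for Mettl7a1 in BKO mice in cold (128.0 FPKM against 112.0 to 113.0), 0.938 for Cat in FF mice in cold (310.0 FPKM against 354.0 to 357.0), 0.977 for Prodh in BKO mice in cold (6.85 FPKM against 9.33 to 9.39) and 0.913 for Pxmp2 in BKO mice in cold (8.42 FPKM against 10.3 to 10.4). Selenbp1 was not among them.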

How the results depend on the processing

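No paired analysis was possible because the labels give no replicate numbers shared between groups. Selenbp1 moved by over 1 within-group SD (0.192 on the log2 scale) under 2 alternatives. In CB15 to CB32 alone, which leave 1 fed FF library, the fed genotype difference was -0.05 and the FF responses to cold and to cold with fasting were 0.39 and 0.32. With the run of library numbers as a term, the fasted difference was -1.88. With single libraries left out, the fasted difference ran from -2.21 to -1.95.

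Counts of called list members changed more. The share of all genes called under the same setting is given in parentheses. Between genotypes, fed mice gave 1 with quantile normalization (0.299%) and 8 with array weights (6.18%). Fasted mice gave 9 with the term for library numbers (1.16%) and 5 with only the libraries compared (0.598%). Cold gave 0 with that term (0.134%), 0 in CB15 to CB32 alone (0.063%), and 1 to 5 without single libraries (0.26% to 0.425%). Cold with fasting gave 1 with no filter (0.104%), 1 with a mean of at least 5 FPKM (0.261%), 7 with array weights (1.1%), 1 in CB15 to CB32 (0.189%), 0 with only the libraries compared (0.0472%), and 0 to 3 without single libraries (0.126% to 0.323%). In FF mice the cold response gave 61 with array weights (52.6%) and 3 in CB15 to CB32 (0.921%). That to cold with fasting gave 11 with the term (6.44%), 47 with array weights (45%), 3 in CB15 to CB32 (2.32%) and 18 to 31 without single libraries (12.1% to 22.5%). In BKO mice cold gave 14 with only the libraries compared (11.4%) and 12 to 23 without single libraries (10.9% to 18.1%). Cold with fasting gave 35 with array weights (30.7%), 3 with only the libraries compared (4.61%) and 9 to 20 without single libraries (11.2% to 19.5%). The cause of these changes was not tested.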
